A study of Mus musculus with 6 samples.

Results

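The Nogo pathway was described here through 9 genes, the myelin inhibitors of axon growth and the receptor complex that reads them, out of 54532 genes in the deposited count table. The members were taken by gene symbol: the ligand genes Rtn4, Mag and Omg, the receptor genes Rtn4r, Rtn4rl1 and Rtn4rl2, and the co-receptor genes Lingo1, Ngfr and Tnfrsf19. Each symbol had 1 row. The RNA was from injured spinal cord, and the mice were of the C57BL/6J strain. The 3 libraries of the trained group came from injured mice given rotarod training (walking on a turning rod), and the 3 libraries of the untrained group from injured mice that had none. All were labelled day 28, counted from training, also the untrained group, which had none. This label does not give the time since injury, or whether the groups match in it. Both groups carried the injury, and no library of uninjured cord was used here, so the values compare training within injured cord. The labels leave out the site and severity of injury, when training began, and the animals' age and sex. Nor do they tie each library to its own mouse, so the p-values cover no more than the scatter among these 6 libraries, part or all of which may be technical.

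Myelin of the central nervous system carries proteins that stop growing axons. Nogo (from Rtn4), myelin-associated glycoprotein (from Mag) and oligodendrocyte-myelin glycoprotein (from Omg) all bind the Nogo receptor, a protein of the neuronal surface with no part inside the cell. The receptor therefore signals through partners, LINGO-1 with either the neurotrophin receptor encoded by Ngfr or its relative TROY encoded by Tnfrsf19, which together activate the small GTPase RhoA and its kinases and collapse the growth cone. In the spinal cord the pathway is known as a brake on regrowth of cut axons and on sprouting of spared ones.

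Total counts were 15814104 to 26092014 per library, and 3 counts, taken as the floor for an undetected gene, came to 0.116 to 0.192 CPM (counts per 1e6 counts, scaled to library size by TMM). Between trained and untrained cord 10 of 16909 genes tested (0.0591%) had an adjusted p below 0.05 in edgeR, 1 higher and 9 lower in trained cord. All genes of the oligodendrocyte, neuron and astrocyte marker lists were detected in every library. Trained replicate 1 stood apart from the other 5 libraries in peripheral genes. Prx, the periaxin gene of Schwann cells, had 0.581 CPM there, against 46.0 to 99.7 CPM in the other 5 libraries. The meningeal fibroblast list summed to 95.5 CPM in trained replicate 1 and to 249 to 498 CPM in the other 5.

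None of the 9 members passed the test in edgeR, and 2 of the 9, Rtn4r and Lingo1, had groups that did not overlap, both at a higher level in trained cord. Over all genes tested the groups did not overlap in 16.8%, and in 8.13% with trained cord higher. The same 2 members had an unadjusted edgeR p below 0.05, as did 10.0% of all genes tested, 4.47% of all genes with trained cord higher. The median log2 fold change (trained over untrained) was -0.016 over the 9 members, 4 of them positive and 5 negative, and -0.0080 over all genes tested. Shares of so few genes against those backgrounds are a description, and every member passed the filter on low counts.

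The promoters of Rtn4r and Lingo1, whose groups did not overlap, are printed with that of Mag, the member of highest level, for contrast. Each is 300 bases from RefSeq on GRCm38.p6, 250 before and 50 after an annotated start, written 5′ to 3′ on the strand of the gene. Capitals mark the GC box, the letters GGGCGG or their reverse complement. RefSeq entries were found for 7 of the 9 members, all but Omg and Rtn4rl1, and the table gives 2 starts of Lingo1 and 3 of Mag, of which 1 is shown.

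Rtn4r, chr16:18127392-18127691, plus strand: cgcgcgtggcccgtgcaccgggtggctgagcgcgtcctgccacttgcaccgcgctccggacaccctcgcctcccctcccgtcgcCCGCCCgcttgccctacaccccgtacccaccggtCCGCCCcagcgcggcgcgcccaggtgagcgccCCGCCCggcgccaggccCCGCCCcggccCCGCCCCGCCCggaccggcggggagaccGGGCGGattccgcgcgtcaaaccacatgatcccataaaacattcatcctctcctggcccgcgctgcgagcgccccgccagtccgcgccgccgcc
Lingo1 distal start, chr9:56796261-56796560, minus strand: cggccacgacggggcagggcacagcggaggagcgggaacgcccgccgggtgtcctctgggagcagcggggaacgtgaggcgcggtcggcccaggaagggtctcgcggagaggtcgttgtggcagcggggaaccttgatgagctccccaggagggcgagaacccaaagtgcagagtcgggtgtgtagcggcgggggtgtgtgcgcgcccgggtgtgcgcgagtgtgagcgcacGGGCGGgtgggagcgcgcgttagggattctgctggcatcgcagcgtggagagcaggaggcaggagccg
Lingo1 proximal start, chr9:56635599-56635898, minus strand: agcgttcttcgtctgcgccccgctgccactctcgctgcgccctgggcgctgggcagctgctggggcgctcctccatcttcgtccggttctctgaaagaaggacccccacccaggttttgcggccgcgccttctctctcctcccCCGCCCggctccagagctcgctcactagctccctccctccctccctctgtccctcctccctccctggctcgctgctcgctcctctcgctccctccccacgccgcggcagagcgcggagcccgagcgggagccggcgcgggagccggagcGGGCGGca
Mag, chr7:30914272-30914571, minus strand: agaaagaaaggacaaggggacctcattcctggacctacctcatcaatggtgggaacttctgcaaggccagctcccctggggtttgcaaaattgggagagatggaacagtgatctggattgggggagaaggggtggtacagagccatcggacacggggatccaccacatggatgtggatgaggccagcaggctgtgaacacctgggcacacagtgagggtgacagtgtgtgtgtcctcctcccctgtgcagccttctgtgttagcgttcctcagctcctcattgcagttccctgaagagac

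The Rtn4r window was 78.0% G and C, above 98.1% of the 32851 promoters in the RefSeq table, with 47 CG dinucleotides and 7 GC boxes, a pair of which overlap by a base. The distal Lingo1 window was 71.3% G and C with 35 CG dinucleotides and 1 GC box, and the proximal one 72.7% with 32 and 2. The Mag window had 55.7% G and C, 3 CG dinucleotides and 0 GC boxes, and is the lowest in G and C of the 3 Mag windows, the others having 65.0% and 63.0%. Some members whose groups overlapped had windows as rich in G and C as those of Lingo1, though below that of Rtn4r. These had 75.3% at 1 of the 3 Rtn4 starts, 74.0% at Rtn4rl2, and 71.7% with 4 GC boxes at Ngfr. The other Rtn4 windows had 62.3% and 39.7%, and those of Tnfrsf19 60.7% and 51.0%. The median promoter had 52.7% G and C and 7 CG dinucleotides, and 35.7% held a GC box on either strand. Of the other motifs searched on both strands, the Rtn4r window held 1 partial cyclic AMP response element (TGACG, in 20.8% of all promoters), and the Mag window held 2 CAAT boxes (CCAAT, in 37.4%). The TATA box (TATAAA, in 13.6%), the E-box CACGTG (in 7.15%) and the AP-1 site (TGANTCA, in 7.81%) were in none of these 4 windows. A match of letters is not a bound site.

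Levels scaled to gene length separated the ligands from the receptors. Mag had the highest level, 223 ± 15.1 CPM per kb in trained and 206 ± 14.4 CPM per kb in untrained cord (SD, n = 3 each, as for all group means that follow). Rtn4 followed at 105 ± 7.23 CPM per kb in trained and 112 ± 7.44 CPM per kb in untrained cord, and Omg at 54.3 ± 3.51 and 54.9 ± 5.58 CPM per kb. In each of the 6 libraries Mag lay above Rtn4 and Rtn4 above Omg. The length used joins all annotated exons of a gene, 6991 bases for Rtn4 and 4072 for Mag, and need not be that of the forms expressed. Without it Mag and Rtn4 were closer, with means over all libraries of 874 and 757 CPM, so their order per kb depends on that length.

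The receptor side was lower. Lingo1 had 14.5 ± 1.11 CPM per kb in trained and 12.5 ± 0.607 CPM per kb in untrained cord, and Tnfrsf19 had 11.2 ± 0.423 and 11.9 ± 0.856 CPM per kb. The ranges of these neighbours in the order overlapped over the 6 libraries, 11.9 to 15.7 CPM per kb for Lingo1 and 10.7 to 12.7 CPM per kb for Tnfrsf19. Of the receptor genes, Rtn4rl1 had 6.33 ± 0.530 CPM per kb in trained and 5.86 ± 0.874 CPM per kb in untrained cord, and Rtn4r 5.33 ± 0.236 and 3.55 ± 0.844 CPM per kb, again with overlapping ranges over all libraries. Within each of the 6 libraries Rtn4rl1 was nonetheless the higher, at 1.10 to 2.07 times Rtn4r per kb. Ngfr had 2.52 ± 1.43 CPM per kb in trained and 3.40 ± 2.14 CPM per kb in untrained cord, a range of 1.19 to 5.77 that overlapped that of Rtn4r. Rtn4rl2 was the lowest at 0.401 ± 0.334 CPM per kb in trained and 0.463 ± 0.0980 CPM per kb in untrained cord, below the other 8 in every library.

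**Figure D1:**
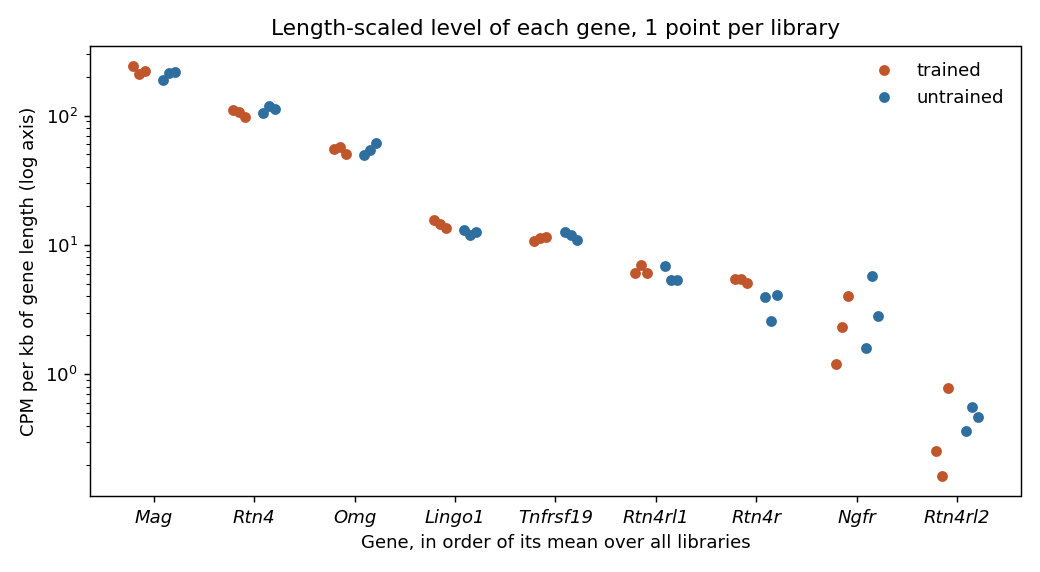
CPM per kb of gene length on a log axis for the 9 genes, ordered by their mean over all libraries, with 1 point per library (trained left, untrained right of each tick). The ligand genes Mag, Rtn4 and Omg lie at 49.9 CPM per kb or more in every library, and the receptor and co-receptor genes at 15.7 CPM per kb or less.

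Rtn4 encodes reticulon 4, a protein of the endoplasmic reticulum and the cell surface, made by oligodendrocytes and by neurons. It had 777, 738 and 677 CPM in trained replicates 1, 2 and 3, against 731, 835 and 786 CPM in untrained replicates 1, 2 and 3. The groups overlapped, with the lowest library trained and the highest untrained. The log2 fold change was -0.10 ± 0.08 (SE), with a 95% interval (unadjusted, as for all those that follow) of -0.28 to 0.081 and an edgeR adjusted p of 0.728.

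The table gives Rtn4 (ENSMUSG00000020458) on the plus strand of chromosome 11, bases 29692947 to 29744331. GENCODE M21 lists 6 coding transcripts of it, for proteins of 1162, 1046, 375, 356 and 199 amino acids, of which the longest is Nogo-A and the shortest Nogo-C. An axon-inhibiting region at the amino terminus, which need not be the only such part of the protein, is known only in the long forms. One count per gene adds these forms together, so which of them the Rtn4 level reflects was not measured. Of the 50-base words in Rtn4 transcripts, 17.0% also occur in those of Eml6, which runs on the opposite strand across its end, and the use of strand in counting is not given. Eml6 had 16.2 to 18.9 CPM in trained cord and 18.2 to 19.4 CPM in untrained.

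Mag encodes a sialic acid-binding adhesion protein of the inner myelin layer, present in oligodendrocytes and in Schwann cells. It had 976, 855 and 896 CPM in the trained replicates, against 772, 867 and 880 CPM in the untrained ones. The groups overlapped through trained replicate 2, and untrained replicate 1 was the lowest of all. The log2 fold change was 0.12 ± 0.08, with an interval of -0.068 to 0.30 and an edgeR adjusted p of 0.685. The highest level of Mag was in trained replicate 1, where the Schwann cell list summed to 65.5 CPM, against 543 to 977 CPM in the other 5 libraries. Mag lies on the minus strand of chromosome 7, bases 30899176 to 30914873, and overlaps no other gene of the table.

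Omg encodes a glycoprotein anchored to the cell surface by a lipid, made by oligodendrocytes and neurons. It had 122, 128 and 113 CPM in the trained replicates, against 111, 120 and 136 CPM in the untrained ones. The untrained libraries held both the lowest and the highest value, and the log2 fold change was -0.016 ± 0.08 (interval -0.20 to 0.17, edgeR adjusted p = 0.969). Its direction turned to 0.0087 with upper-quartile scaling, to 0.052 without trained replicate 3 and to 0.065 without untrained replicate 3. Omg lies at bases 79500982 to 79504084 of chromosome 11, inside the span of Nf1 on the opposite strand. None of its 50-base words (0%) occur in transcripts of another gene, on either strand. Nf1 itself had 113 to 114 CPM in trained cord and 111 to 127 CPM in untrained.

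The ligand genes were set beside 10 oligodendrocyte genes, of which 5 had positive and 5 negative log2 fold changes. Their median log2 fold change was -0.0011, and 0 of the 10 passed in edgeR. Mbp, the myelin basic protein gene, was at 0.18 ± 0.09 on the log2 scale. In bulk RNA, fewer cells of a type and less RNA per cell cannot be told apart. Relative to the mean log2 CPM of that list, Mag was at 0.013, -0.086 and 0.069 in the trained replicates, against -0.086, -0.13 and -0.13 in the untrained ones. Rtn4 was at -0.32, -0.30 and -0.34 in the trained replicates, against -0.17, -0.18 and -0.29 in the untrained ones.

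Rtn4 and Mag had log2 fold changes of opposite sign, and their ratio kept the groups apart. The level of Rtn4 per kb was 0.464, 0.503 and 0.440 times that of Mag in the trained replicates, against 0.551, 0.561 and 0.520 times in the untrained ones. Every trained library lay below every untrained one, a difference of -0.22 in the mean log2 ratio. This ratio is 1 of 6 chosen after the values were seen, and is given as a description with no test. The groups were also apart for Rtn4rl1 over Rtn4r and for Lingo1 over Rtn4r. These ratios share a denominator whose own groups did not overlap, so they are not separate from that difference. Single genes had groups apart in 16.8% of all those tested, and the like share over pairs of genes was not computed. The ratios of Mag to Omg, Tnfrsf19 to Ngfr and Rtn4rl1 to Rtn4rl2 overlapped between the groups.

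Rtn4r encodes the Nogo receptor, to which all of these ligands bind, and is expressed mainly by neurons. It had 10.6, 10.6 and 9.81 CPM in the trained replicates, against 7.70, 4.99 and 7.92 CPM in the untrained ones, from 273, 172 and 158 counts and from 141, 83 and 124 counts. All trained libraries lay above all untrained ones, and untrained replicate 2 was the lowest. The means were 10.3 ± 0.458 CPM in trained cord and 6.87 ± 1.64 CPM in untrained. The log2 fold change was 0.59 ± 0.18 with an interval of 0.20 to 0.98, or 1.15 to 1.97 times the untrained level, and edgeR gave an unadjusted p of 0.00616 and an adjusted p of 0.321, so Rtn4r did not pass over all genes. It was at a log2 fold change of 0.40 without untrained replicate 2 and of 0.57 without trained replicate 1. Rtn4r lies on the plus strand of chromosome 16, bases 18127642 to 18152408, overlaps no other gene of the table, and has 1 annotated transcript with 0% of its 50-base words elsewhere. Its promoter is the first of those printed above.

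Rtn4rl1 and Rtn4rl2 encode relatives of the Nogo receptor with the same leucine-rich repeat fold. Rtn4rl1 had 21.2, 24.5 and 21.2 CPM in the trained replicates, against 24.2, 18.8 and 18.9 CPM in the untrained ones. Untrained replicate 1 lay within the trained range, and the log2 fold change was 0.11 ± 0.12 (interval -0.15 to 0.37, edgeR adjusted p = 0.807). Rtn4rl2, whose protein binds myelin-associated glycoprotein, had 10, 4 and 19 counts in the trained replicates, against 10, 14 and 11 counts in the untrained ones, or 0.387, 0.247 and 1.18 CPM against 0.546, 0.841 and 0.703 CPM. The trained libraries held its lowest and its highest value. Its log2 fold change of -0.24 ± 0.55 had an interval of -1.42 to 0.94 (edgeR adjusted p = 0.919). These libraries do not tell apart differences within those limits. Leaving out trained replicate 1 turned it to 0.037 and leaving out trained replicate 2 to 0.097, while it was -1.05 when trained replicate 3 was dropped.

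Lingo1 encodes a leucine-rich repeat protein of neurons and oligodendrocyte-lineage cells that joins the receptor complex and is also known as a brake on oligodendrocyte maturation. It had 73.8, 68.4 and 63.4 CPM in the trained replicates, against 61.8, 56.1 and 59.2 CPM in the untrained ones. The groups did not overlap, but trained replicate 3 lay close to untrained replicate 1. The means were 68.5 ± 5.21 CPM in trained cord and 59.1 ± 2.86 CPM in untrained, a 1.16-fold difference. The log2 fold change was 0.22 ± 0.08 (interval 0.048 to 0.38, edgeR unadjusted p = 0.0159, adjusted p = 0.380). The unadjusted edgeR p was 0.0897 without trained replicate 1 and 0.0594 without untrained replicate 2, and the adjusted p was 0.0841 without trained replicate 3. Lingo1 spans bases 56618475 to 56796468 of chromosome 9 on the minus strand, with the starts whose promoters are printed above some distance apart, and the gene count does not separate them.

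Ngfr encodes a neurotrophin receptor of the tumour necrosis factor receptor family, found in Schwann cells, in some neurons and in perivascular cells, and induced after nerve injury. It had 4.10, 8.03 and 13.9 CPM in the trained replicates, against 5.52, 19.9 and 9.78 CPM in the untrained ones. The libraries of each group spread widely, the highest 4.84 times the lowest over all 6, and the groups overlapped. The log2 fold change was -0.45 ± 0.70, with an interval of -2.34 to 1.43 and an edgeR adjusted p of 0.881. Leaving out untrained replicate 2 turned it to 0.17. It was -0.96 with trained replicate 3 dropped and -0.093 with trained replicate 1 dropped. On a linear scale that interval runs from 0.198 to 2.70 times the untrained level.

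The level of Ngfr was set beside the Schwann cell and meningeal fibroblast lists, whose sums were lowest in trained replicate 1. The Schwann cell list, 7 genes, summed to 65.5, 977 and 543 CPM in the trained replicates and to 801, 887 and 549 CPM in the untrained ones. Within this list the gap was uneven, since Drp2, a Schwann cell gene of the dystrophin complex, had 42.9 CPM in trained replicate 1 and 63.6 to 93.0 CPM in the other 5 libraries. Pmp2 was at 0 counts in trained replicates 1 and 3 and untrained replicate 3. Ngfr was lowest in trained replicate 1, and next lowest in untrained replicate 1, where the Schwann cell list summed to 801 CPM. The part of these lists in the Ngfr level was not tested. The other lists had median log2 fold changes of -0.051 (oligodendrocyte precursor), -0.15 (astrocyte), -0.24 (microglia), -0.26 (Schwann cell), -0.051 (meningeal fibroblast), -0.18 (endothelial) and -0.076 (ependymal), and 0 genes of any of them passed in edgeR.

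Tnfrsf19 encodes TROY, which can stand in for the Ngfr product in the receptor complex and is found in astrocytes and progenitor cells. It had 50.8, 53.9 and 54.5 CPM in the trained replicates, against 60.1, 56.7 and 52.0 CPM in the untrained ones. Untrained replicate 3 lay within the trained range. The log2 fold change was -0.087 ± 0.08 (interval -0.25 to 0.081, edgeR adjusted p = 0.751). Within a library the level of Tnfrsf19 per kb was 8.995, 4.88 and 2.85 times that of Ngfr in the trained replicates, against 7.92, 2.07 and 3.87 times in the untrained ones, so Tnfrsf19 was the higher of these alternative partners in all 6.

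**Figure D2:**
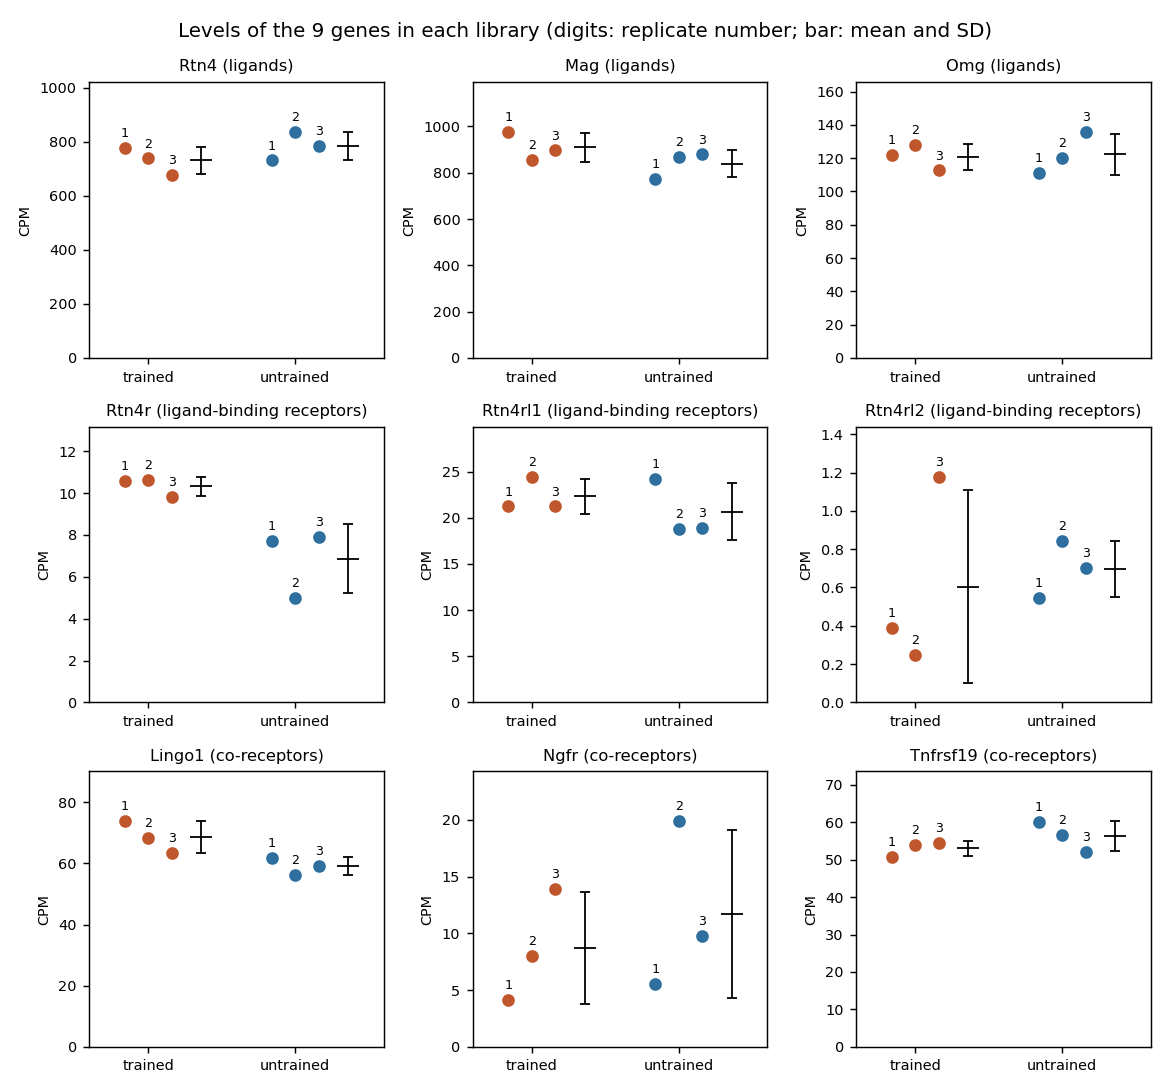
CPM of each gene in each library, with axes that start at 0, trained left and untrained right, and the mean and SD (n = 3) beside each group. The groups are apart in Rtn4r and Lingo1, and the libraries spread widely in both groups in Ngfr and in the trained group in Rtn4rl2.

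Neuron genes were set beside Rtn4r and Lingo1. Of 10 neuron genes 0 passed in edgeR, with a median log2 fold change of -0.018. Snap25, a synaptic release gene, was at -0.0083 ± 0.095 and Nefm, the medium neurofilament gene, at -0.17 ± 0.12. Relative to the mean log2 CPM of this list, Rtn4r was at -5.66, -5.63 and -5.50 in the trained replicates, against -5.94, -6.71 and -6.05 in the untrained ones. Lingo1 was at -2.85, -2.94 and -2.81 in the trained replicates, against -2.93, -3.22 and -3.14 in the untrained ones. On this scale the groups stayed apart for Rtn4r, while trained replicate 2 and untrained replicate 1 met for Lingo1.

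**Figure D3:**
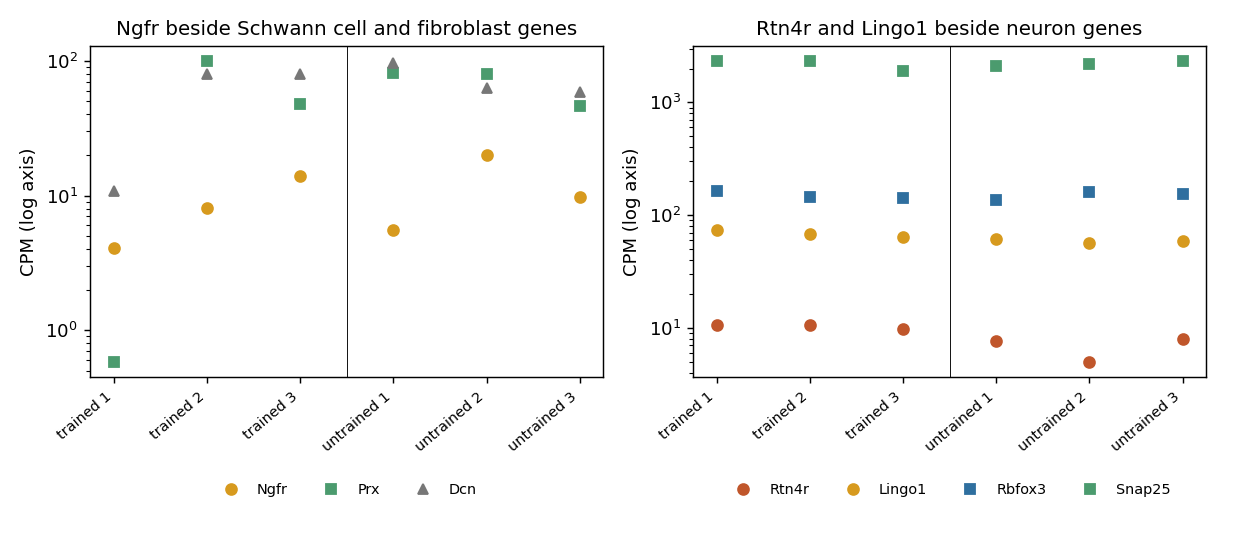
CPM on log axes in each library, trained replicates left of the vertical line. Left panel, Ngfr beside the Schwann cell gene Prx and the fibroblast gene Dcn: all 3 are lowest in trained replicate 1, where Prx has 0.581 CPM. Their highest values fall in different libraries, untrained replicate 2 for Ngfr, trained replicate 2 for Prx and untrained replicate 1 for Dcn. Right panel, Rtn4r and Lingo1 beside the neuron genes Rbfox3 and Snap25.

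The wider pathway was read from 44 listed genes, of which 43 were in the table and 42 were tested. None of the 42 passed in edgeR, and at an unadjusted p below 0.05 there were 5, 1 at a higher and 4 at a lower level in trained cord, compared with 10.0% of all genes in either direction. Without untrained replicate 3 only Rock1 of these 5 was still below it, and without trained replicate 1 there were 2 of the 5. The groups did not overlap in 8 of the 42, against 16.8% of all genes. The median log2 fold change was -0.032.

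Of 8 tested receptor genes for inhibitors outside the members, Adgrb1 alone had an unadjusted p below 0.05. It encodes an adhesion G protein-coupled receptor known to bind Nogo receptors. Adgrb1 had 194, 179 and 169 CPM in the trained replicates, against 167, 152 and 157 CPM in the untrained ones, with no overlap, and a log2 fold change of 0.19 ± 0.08 (edgeR adjusted p = 0.426). Nus1, the Nogo-B receptor gene, was at -0.083 ± 0.07 and Ptprf, of a receptor phosphatase family that reads chondroitin sulfate proteoglycans, at 0.054 ± 0.07. The median log2 fold change of these 8 genes was -0.020.

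Of 10 genes for regulators of the receptor complex, 0 passed and 7 had negative log2 fold changes, with a median of -0.064. Adam10, a membrane protease gene, had 85.5, 106 and 97.8 CPM in the trained replicates, against 108, 113 and 117 CPM in the untrained ones, without overlap (log2 fold change -0.23 ± 0.08, edgeR adjusted p = 0.390). Lgi1, a secreted synaptic protein gene, was at -0.13 ± 0.07, also without overlap, and Olfm1, the gene of a secreted olfactomedin that binds the Nogo receptor, at 0.17 ± 0.08 with overlapping groups.

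Of 14 genes of RhoA signalling, 0 passed, and the median log2 fold change was -0.032. The RhoA-activated kinase gene Rock1 had 31.8, 37.5 and 36.9 CPM in the trained replicates, against 43.3, 42.8 and 41.8 CPM in the untrained ones, a log2 fold change of -0.27 ± 0.08 (edgeR unadjusted p = 0.00702, adjusted p = 0.323). Its relative Rock2 had 99.3, 108 and 98.8 CPM in the trained replicates, against 114, 110 and 116 CPM in the untrained ones, at -0.15 ± 0.07 (edgeR adjusted p = 0.493). Neither gene's groups overlapped. Rhoa itself was at -0.043 ± 0.07 with overlapping groups. Arhgdia, a dissociation inhibitor gene of the same list, was at 0.11 ± 0.07, also without overlap but higher in trained cord.

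Of 10 tested relatives of the members, 0 passed. Lingo4, a paralogue of Lingo1, had 18.6, 13.9 and 12.2 CPM in the trained replicates, against 17.4, 19.5 and 22.7 CPM in the untrained ones, with overlapping groups and a log2 fold change of -0.41 ± 0.16 (edgeR adjusted p = 0.430). Rtn1, a neuronal reticulon gene, was at 0.14 ± 0.08 without overlap. Siglec1, a macrophage gene of the sialic acid-binding family of Mag, was at -0.75 ± 0.50 with overlapping groups.

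**Figure D4:**
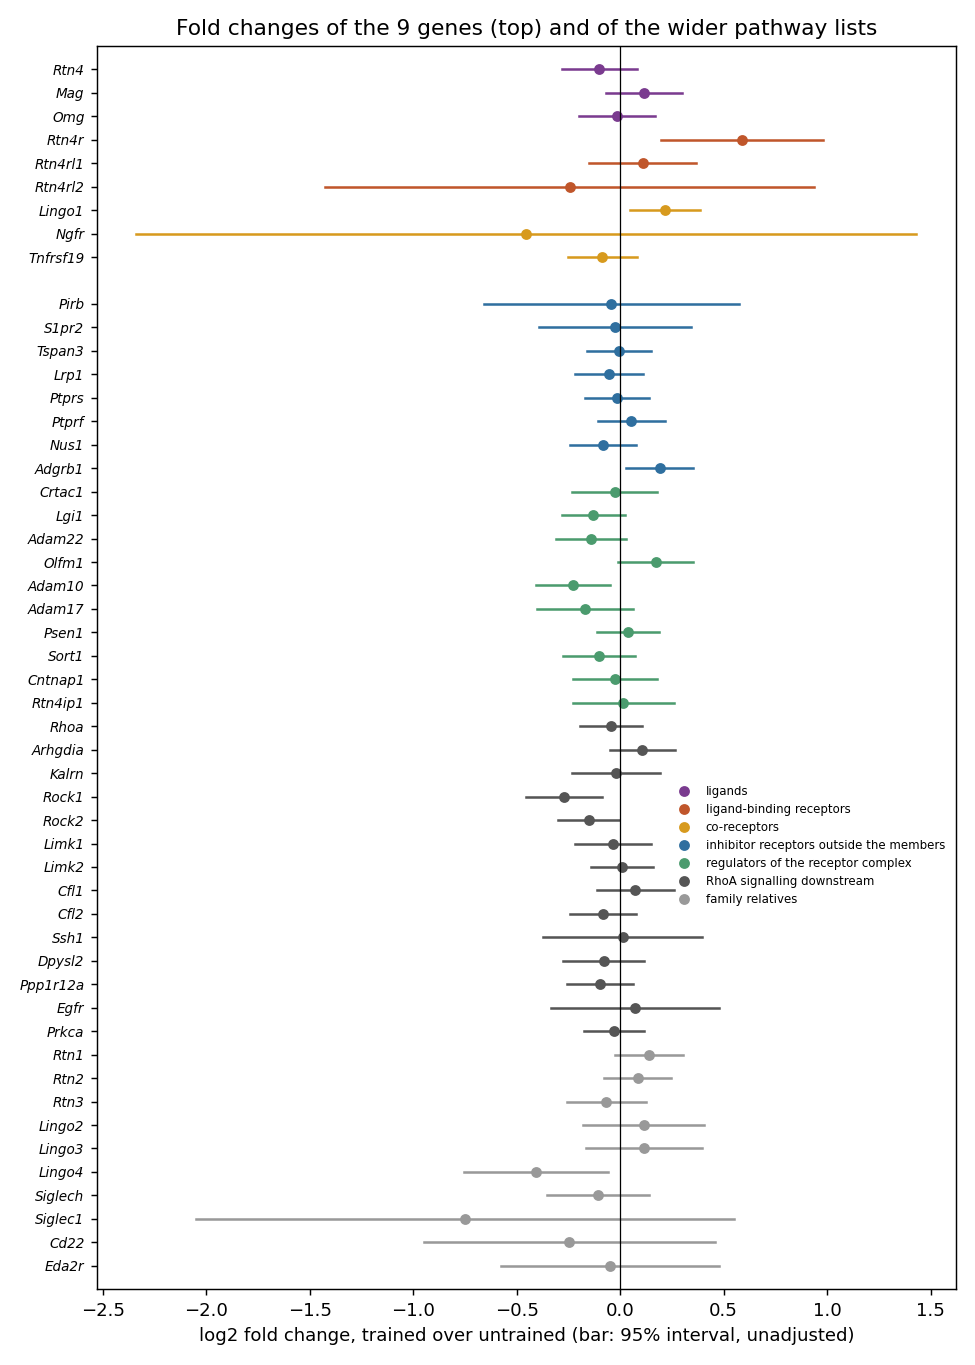
Log2 fold change, trained over untrained, with its 95% interval from edgeR, for the 9 genes (top) and the 42 tested genes of the wider lists, coloured by list. Intervals of Rtn4r and Lingo1 lie above 0, those of Ngfr and Rtn4rl2 are the widest among the 9, and no gene passed after adjustment over all genes.

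The genes most like each member were those whose log2 CPM, centred on the 6 libraries, had the smallest root mean square difference from it, among 12462 genes of at least 5 CPM. For Lingo1 these were Haghl (0.011), Adgrb1 (0.017) and D230017M19Rik (0.021). Adgrb1 is thus both in the wider pathway list and among the genes nearest to Lingo1, which itself deviated by 0.13 from its own mean. For Rtn4r, which deviated by 0.38, they were Shisa8 (0.11), Gm5069 (0.12) and Gm15772 (0.13). For Mag they were Ncan, the neurocan gene (0.018), Hint1 (0.022) and Polr1c (0.028), for Rtn4 Rtcb (0.015), Braf (0.016) and Acsl6 (0.018), and for Omg Ss18l1 (0.015), Cyth2 (0.020) and Prox1 (0.021).

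For Rtn4rl1 the nearest were Pck2 (0.035), Ints11 (0.038) and Xbp1 (0.046), and for Tnfrsf19 Peli2 (0.015) and Golph3l (0.028). The members that spread most had no close match, on a measure that grows with a gene's own spread. For Rtn4rl2, which deviated by 0.74, the nearest were Slfn8 (0.30), Ifi44 (0.33) and Arhgap4 (0.34). For Ngfr, which deviated by 0.77, they were CT010467.1 (0.34), Ifi27l2a (0.36) and Gm23935 (0.42). The table annotates CT010467.1 as a ribosomal RNA gene, and it had 1349, 1491 and 2734 CPM in the trained replicates, against 1204, 3052 and 1867 CPM in the untrained ones. Ngfr and CT010467.1 were thus both highest in untrained replicate 2 and next highest in trained replicate 3, and the part of ribosomal RNA in the Ngfr level was not tested. With 6 libraries and so many genes, close profiles arise for any gene that varies little, and they say nothing of shared control.

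**Figure D5:**
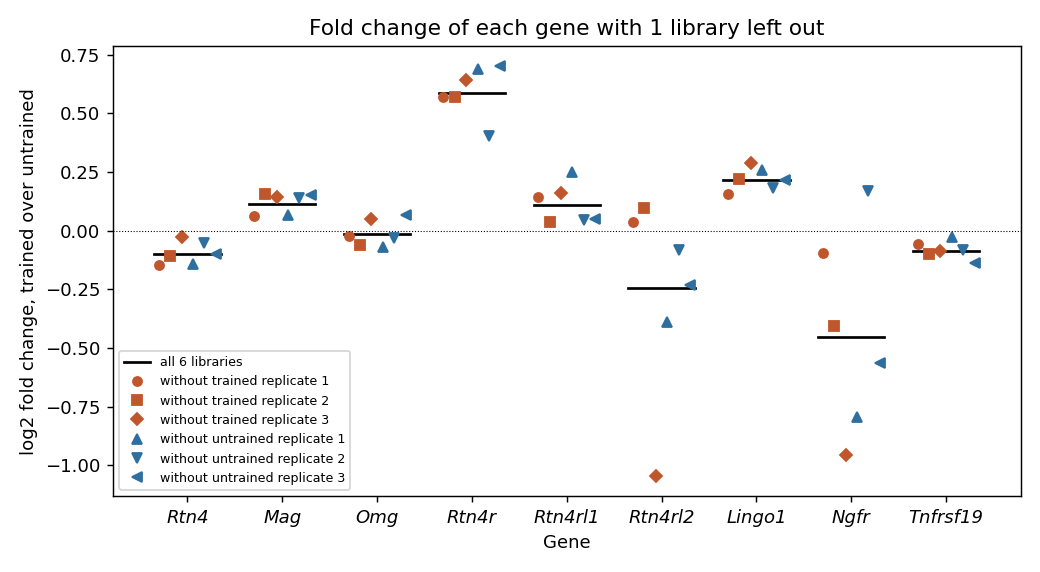
Log2 fold change of each gene with all 6 libraries (line) and with 1 library left out (symbols, trained in red and untrained in blue). Rtn4r stays between 0.40 and 0.70 and Lingo1 between 0.16 and 0.29, while Omg, Rtn4rl2 and Ngfr lie on both sides of 0.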

How the data were processed

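RNA of 6 mouse spinal cord samples was sequenced as 150 bp paired-end reads, per the labels' protocols. A single table of unnormalized counts per gene, with symbols, coordinates and lengths, was deposited by the authors. Bowtie (0.12.2) and builds mm8 and mm9 appear in the submitters' processing notes without a role. The counting tool, its annotation and its strand setting are not given in those sources. Of 54532 gene IDs, 54495 are in GENCODE M21 (GRCm38), 98.3% of them with the same coordinates, so coordinates are read as GRCm38.

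Counts were scaled by TMM and tested with edgeR 4.0.16 in R 4.3.3 (quasi-likelihood, robust, filterByExpr by group), which kept 16909 genes, with Benjamini-Hochberg adjustment over all of them and a threshold of 0.05. Each SE is the absolute log2 fold change over the root of F. Totals per library were 15814104 to 26092014. The median SE over genes was 0.12, which includes scatter between libraries as well as counting error. CPM per kb used the gene lengths of the table. Intervals of fold changes cover the scatter among these libraries, and floors cover counting error only. Alternatives used limma 3.58.1 and DESeq2 1.42.0. The script for the test was checked on simulated data with changes larger than those estimated for any member. That check does not show whether changes of the members' size would be called.

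The members and gene lists were chosen with earlier results of these data known. Named were all members, the 3 genes of smallest p in each pathway list, the 2 most abundant markers of the lists described, and the 3 genes nearest to each member. Dcn, Prx, Pmp2, Rbfox3 and Rhoa were named after their values were seen. Some genes that this rule names are not reported here.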

Additional observations from a re-analysis of the deposited data

How the results depend on the processing

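Among all genes, 10 passed in edgeR with all libraries, 86 with DESeq2, 276 without a filter on low counts, 5 with the replicate block, 18 at an adjusted p below 0.1 and 1693 at an unadjusted p below 0.05. With 1 library left out the count was 4 (without trained replicate 2) to 221 (without trained replicate 3), and 21 without trained replicate 1. The cause was not tested. None of the 9 members and none of the 42 pathway genes passed (0 in each) under any of these fits at an adjusted p, and 2 members and 5 pathway genes did at an unadjusted p with all libraries. The count of members at an unadjusted p below 0.05, an alternative added after the data were seen, ran from 1 to 2 with 1 library left out. It was 1 without trained replicate 1 and without untrained replicate 2, where Lingo1 missed it. The like count of pathway genes, also added later, was 3 with the replicate block and 2 to 9 with 1 library left out (2 without trained replicate 1 or untrained replicate 3, 3 without trained replicate 2 or untrained replicate 2, 9 without trained replicate 3). The 2 members whose groups did not overlap were 2 under RLE and upper-quartile scaling as well.

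Signs turned for Omg (0.0087 with upper-quartile scaling, -0.072 to 0.065 with 1 library left out), Rtn4rl2 (-1.05 to 0.097) and Ngfr (-0.96 to 0.17). The other 6 members kept their sign in all 13 alternative fits. Rtn4r ran from 0.40 to 0.70 with a smallest adjusted p of 0.0617, without a filter, and Lingo1 from 0.16 to 0.29 with a smallest adjusted p of 0.0841. With the replicate block Rtn4r was at 0.61 and Lingo1 at 0.21 on the log2 scale. Same-numbered libraries had deviations that correlated at -0.18, -0.091 and -0.13 over genes, and no sample correlated best with its own number. The labels state no pairing, and these values cannot decide it, because deviations from a mean of 3 libraries depend on each other. Rtn4rl2 was not tested with at least 1 CPM in 3 libraries. A planned comparison of protein identity between members was not run. Depth limits Rtn4rl2, at 4 to 19 counts per library.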
